A study of Mus musculus with 10 samples.

Results

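Axon guidance ligands and receptors were followed here as 165 peaks of accessible chromatin among the 37513 peaks of a mouse lung and brain data set. A peak was a member if it overlapped, or lay within 5000 bp of, a protein-coding gene whose symbol begins with Sema and a digit, Plxn, Epha, Ephb, Efna, Efnb, Slit and a digit, Unc5 or Ntn, or is Robo1, Robo2, Robo3, Dcc or Neo1. The nearest gene end decided between genes. Of 71 genes with such a symbol, 50 had at least 1 peak and 21 had none. The rule used symbols and positions only, not the measured values. With a window of 1000 bp in place of 5000 bp, 157 peaks would have been members.

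The data are ATAC-seq, in which the transposase Tn5 inserts sequencing adapters into open chromatin, from nuclei excised from sections by laser microdissection. Every mouse was wild type and of the inbred strain C57BL/6J, and no animal's age, sex or number is given in the sources used here. Tn5 acted on the section before nuclei were picked at random, so a library mixes whatever cell types were hit. Lung was sampled in 3 libraries of 50 singly captured nuclei and 3 of about 200 nuclei taken as 10 areas, and brain in 2 libraries of each kind. Nucleus number and capture mode changed together and cannot be told apart. The labels speak of technical duplicates, so the p-values measure only the spread between libraries, which may be technical. In such bulk libraries, fewer cells of a type and less accessibility per cell cannot be told apart.

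Guidance cues steer growing axons by attraction or repulsion, and each family of ligands has its receptors. Semaphorins signal through plexins, ephrins through Eph receptors, Slits through Robo receptors, and netrins through Dcc, neogenin and the Unc5 receptors. Blood vessels use some of the same molecules: Plxnd1, Unc5b, Ephb4 and Efnb2 are textbook genes of endothelium, whereas Dcc, Robo3 and Unc5d are known from neurons. A list of 9 vessel-type genes and a list of 19 neuron-type genes were compared, and the other genes were treated as neither. Both lists were written with earlier results of these data known, so their comparison is a description and not independent support.

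The sequences shown are the promoters of 4 Eph receptor genes of the neuron-type list, chosen because a peak at their start site was more accessible in brain. They are 4 of 10 such start sites among the guidance genes. They are set against the promoters of Sema3g and Unc5b, vessel-type genes whose start-site peaks did not differ between the tissues beyond the test's threshold. Each line gives the 250 bases before the transcription start from RefSeq (GRCm38.p6, the assembly of mm10), read 5′ to 3′ on the strand of the gene. Capitals mark the motifs searched on both strands: the GC box GGGCGG, which reads as CCGCCC on the other strand, the E-boxes CAGCTG and CAGATG, the SOX cores ACAATG and ACAAAG, the ETS core CAGGAAG, and the left and right parts of the RE1 element. None of these motifs overlaps another in the windows shown. The windows are chr5:84417383-84417632 (minus strand) for Epha5, chr9:102354694-102354943 (minus) for Ephb1, chr4:28812881-28813130 (plus) for Epha7, chr4:124881535-124881784 (plus) for Epha10, chr14:31217623-31217872 (plus) for Sema3g and chr10:60831582-60831831 (minus) for Unc5b.
Epha5: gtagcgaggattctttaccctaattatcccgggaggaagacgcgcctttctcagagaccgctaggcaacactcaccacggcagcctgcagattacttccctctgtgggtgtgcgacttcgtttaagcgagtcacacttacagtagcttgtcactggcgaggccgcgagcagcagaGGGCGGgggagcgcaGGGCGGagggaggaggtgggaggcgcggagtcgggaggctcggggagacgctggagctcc
Ephb1: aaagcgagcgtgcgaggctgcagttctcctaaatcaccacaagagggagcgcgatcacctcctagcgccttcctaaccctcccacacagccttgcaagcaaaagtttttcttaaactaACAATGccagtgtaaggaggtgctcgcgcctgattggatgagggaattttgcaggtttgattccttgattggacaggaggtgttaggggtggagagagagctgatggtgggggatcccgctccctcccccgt
Epha7: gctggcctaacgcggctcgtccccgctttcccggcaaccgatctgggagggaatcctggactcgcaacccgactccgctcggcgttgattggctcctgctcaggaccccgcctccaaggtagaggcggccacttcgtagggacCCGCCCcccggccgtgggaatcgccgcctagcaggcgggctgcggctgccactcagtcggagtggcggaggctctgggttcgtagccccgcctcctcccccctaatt
Epha10: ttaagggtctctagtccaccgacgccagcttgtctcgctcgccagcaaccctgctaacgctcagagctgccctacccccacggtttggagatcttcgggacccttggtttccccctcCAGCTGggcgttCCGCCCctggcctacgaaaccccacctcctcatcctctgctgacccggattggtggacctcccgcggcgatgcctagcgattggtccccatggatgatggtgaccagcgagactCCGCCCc
Sema3g: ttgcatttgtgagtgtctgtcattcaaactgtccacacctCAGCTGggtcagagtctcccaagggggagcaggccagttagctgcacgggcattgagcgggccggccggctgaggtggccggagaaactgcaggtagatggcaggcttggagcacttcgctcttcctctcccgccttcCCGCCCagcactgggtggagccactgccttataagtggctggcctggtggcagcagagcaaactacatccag
Unc5b: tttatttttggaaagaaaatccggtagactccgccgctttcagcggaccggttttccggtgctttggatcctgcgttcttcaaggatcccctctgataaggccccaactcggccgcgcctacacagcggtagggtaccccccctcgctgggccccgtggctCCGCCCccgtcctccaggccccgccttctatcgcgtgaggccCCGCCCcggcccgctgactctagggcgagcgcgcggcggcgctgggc

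The deposited peaks covered 192 of the 250 bases at Epha5, 167 at Ephb1, 240 at Epha7, 93 at Epha10, 147 at Sema3g and 187 at Unc5b. The 6 windows held from 8 CpG pairs at Sema3g to 27 at Unc5b, and Epha7 had 25. Across the 39 windows next to start-site peaks of guidance genes the median was 17 CpG pairs. It was also 17 over the 9074 windows next to start-site peaks of any gene, and 6 over all 32851 promoter windows of the RefSeq table. The GC box, which Sp-family factors bind, was present in 31 of the 39 guidance windows (79.5%), in 63.6% of windows at start-site peaks of any gene and in 32.7% of all windows. It was in 10 of 10 vessel-type windows and in 3 of 6 neuron-type windows, with none at Ephb1. The SOX core stood in 2 of the 6 neuron-type windows and 1 of 10 vessel-type windows, against 16.1% of windows at start-site peaks of any gene. The E-box CAGCTG stood in 2 and 1 of them, against 11.3%. The E-box CAGATG stood in none of these 16 windows (8.91% of windows at start-site peaks), and the ETS core in 1 vessel-type window and no neuron-type window (9.82%). Neither part of RE1 occurred in any of the 77 promoter windows of guidance genes, and they are rare at 0.301% and 0.0974% of all windows. These are matches of letters and not binding sites.

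All 165 guidance peaks passed the minimum of 10 reads and were tested. They held 51 start-site peaks (30.9%), meaning that the centre lay within 1000 bp of a listed RefSeq start of the gene. The rest were 97 gene-body peaks (58.8%), 6 peaks within 1000 bp of a gene end but of no listed start (other gene end), and 11 flanking peaks. Starts were listed for 61 of the 71 genes. None was listed for Ntn1, Plxna1, Plxna4, Sema3f, Sema6a, Slit1 and Unc5d, so a peak at a start of these genes was counted under another place. Among all peaks with an assigned gene, 42.1% were start-site peaks and 39.1% gene-body peaks. The median width was 150 bp, against 164 bp for all nuclear peaks. Another gene was also in reach of 11 of the 165 peaks. The vessel-type list had 42 peaks over 9 of 9 genes, the neuron-type list 22 peaks over 12 of 19 genes, and the remaining 29 genes 101 peaks. No peak was assigned to the netrin receptor genes Dcc and Unc5a, the ephrins Efna2, Efna3, Efna4 and Efnb3, the Eph receptors Epha8 and Ephb2, the netrins Ntn3, Ntng1 and Ntng2, the plexins Plxnb1 and Plxnb3, or the semaphorins Sema3a, Sema3b, Sema4a, Sema4d, Sema4g and Sema5b. Unc50 and Unc5cl, which fit the rule by symbol only and are not netrin receptors, had none either. At Efna4, Ntn3, Sema3b and Unc50 a peak in reach had been given to a nearer gene.

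Total reads in peaks ranged from 573596 to 10973796 per library, and reads in nuclear peaks from 319307 to 3075377. Mitochondrial peaks took 24.7% to 58.0% of reads in lung and 93.4% to 95.8% in brain, so levels are scaled to 1000000 reads over the nuclear peaks (RPM). Replicates 2 and 3 of lung at 50 nuclei stood apart: they had a read in 89 and 87 of the 165 guidance peaks, and the other 8 libraries in 149 to 162. The tissue labels were checked against marker lists. Of 15 peaks at neuron genes, 10 were higher in brain and 0 in lung, with summed levels of 312 to 426 RPM in brain and 21.9 to 99.8 RPM in lung, and the called peaks of Snap25 and Rbfox3 had no read in lung. Of 52 peaks at endothelial genes, 23 were higher in lung and 0 in brain, with summed levels of 1593 to 2358 RPM in lung and 499 to 706 RPM in brain. Lung epithelium genes (6 of 25 peaks higher in lung), glial genes (4 of 16 higher in brain) and immune genes (0 of 8) completed the check, and Sftpc, Aqp4, Cd3e and Cx3cr1 had no peak.

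Chromatin at guidance genes differed between the tissues in both directions. In brain, 13 peaks of 12 genes were more accessible, mostly the start sites of receptors such as Epha5, Ephb1, Robo1 and Neo1. In lung, 8 peaks of 7 genes were more accessible, 7 in gene bodies and the Sema3g peak in the flank. No start was listed for Ntn1, Plxna4 and Sema3f, so their peaks could not be classed as start sites. The called ones lay over 1000 bp from both ends of their gene. The lung-higher peaks included those of the vessel-type genes Sema3g, Epha2 and Ntn4. The test was edgeR's quasi-likelihood F test for brain minus lung averaged over both sizes, with Benjamini-Hochberg adjustment over 37466 peaks and a threshold of 0.05. Where overlap between libraries is given for a called peak, it describes a peak picked by this test and adds no support. The 13 brain-higher peaks were 7.88% of the guidance peaks, against 5.76% of all peaks, and the 8 lung-higher peaks were 4.85%, against 4.39% of all peaks. Both shares were near the background. The median log2 fold was 0.09 over the guidance peaks and 0.07 over all peaks, and summed guidance accessibility was 3183 ± 178 RPM in brain (SD, n = 4) and 3135 ± 154 RPM in lung (SD, n = 6). The ranges of the summed level overlapped (2943 to 3360 RPM in brain and 2882 to 3315 RPM in lung), while single peaks differed in both directions.

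The counts depended on single libraries, at guidance peaks and over all peaks alike. Over all peaks, 2158 were higher in brain and 1645 in lung with all 10 libraries. These were 5240 and 1783 without replicate 1 of lung at 50 nuclei. Without replicate 2 of lung at 200 nuclei they were 1296 and 956, and without its replicate 3 they were 1154 and 892. The brain-higher count was 4 without replicate 1 of brain at 200 nuclei, 7 without replicate 2 of that group, 8 and 6 without replicates 1 and 2 of brain at 50 nuclei, 6 and 8 without replicates 2 and 3 of lung at 200 nuclei, and 25 without replicate 1 of lung at 50 nuclei. The lung-higher count was 3 and 2 without replicates 1 and 2 of brain at 200 nuclei, 4 and 3 without replicates 1 and 2 of brain at 50 nuclei, and 5, 5 and 3 without replicates 1, 2 and 3 of lung at 200 nuclei. Without both libraries that stood apart, 25 peaks (15.2%) were higher in brain and 21 (12.7%) in lung, against 9.95% and 12.4% of all peaks, and these included all 13 and all 8. The peaks at Epha5, Robo1 and Sema3g, 1 of 2 called peaks each at Unc5c and Sema3f, and no others kept their call in each of the 10 fits that left out 1 library. Scaled by library totals, which are mostly mitochondrial in brain, the median of all peaks moved by -3.41 on the log2 scale and 127 guidance peaks were called higher in lung and 1 in brain, so every direction given here is relative to nuclear chromatin.

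**Figure D1:**
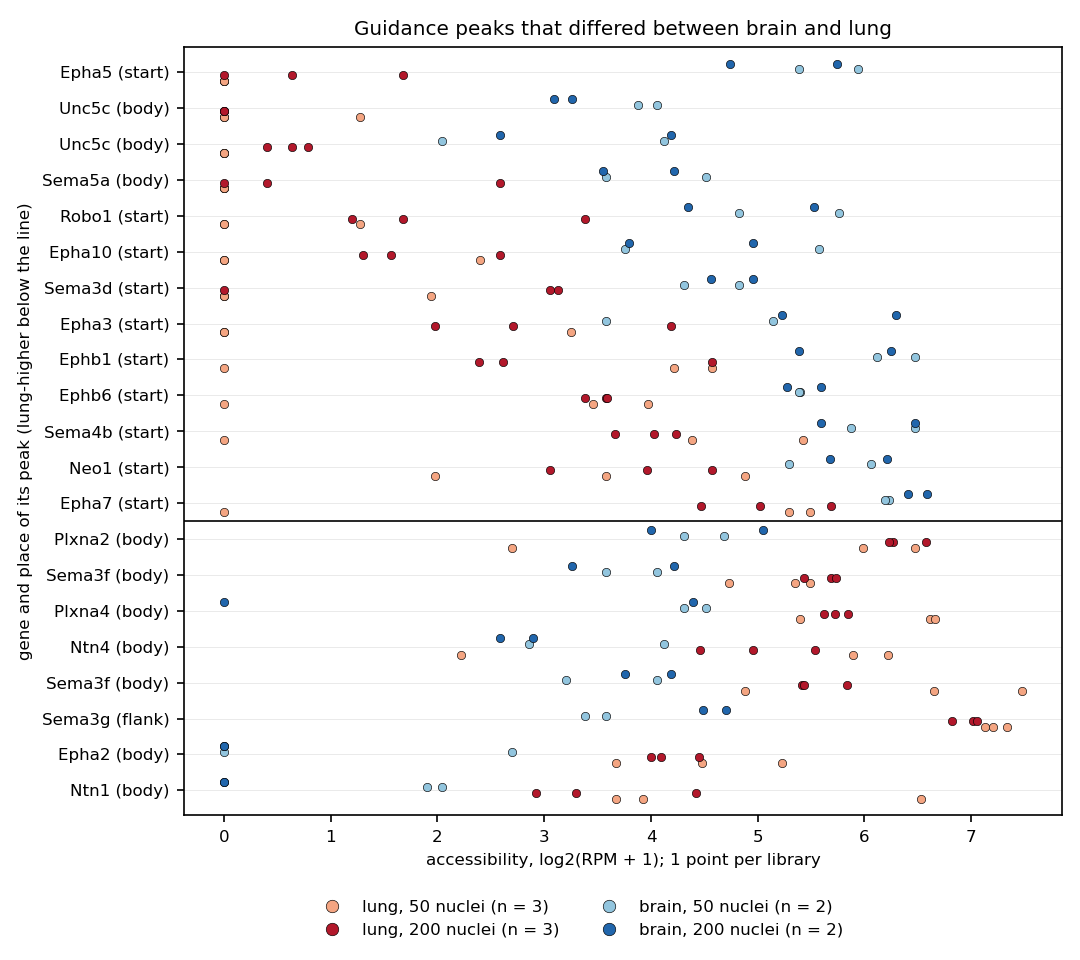
Accessibility of the 21 guidance peaks that differed between the tissues, 1 point per library, as log2(RPM + 1) on the horizontal axis; rows name the gene and the place of the peak. In the 13 rows above the line brain points lie to the right, without overlap except at Epha3, and in the 8 rows below it lung points do, without overlap except at Ntn4 and Plxna2. The rows were picked by the test of this difference, so the lack of overlap adds no support to it.

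Eph receptors, the receptor tyrosine kinases that bind ephrins, had 6 of their 33 peaks higher in brain (18.2%) and 1 in lung (3.03%), against 5.76% and 4.39% of all peaks. The start site of Epha5, a receptor of topographic axon maps (chr5:84417345-84417574), measured 60.2 and 40.7 RPM in brain at 50 nuclei and 52.7 and 25.8 RPM at 200 nuclei, against 0 to 2.20 RPM in lung with a median of 0. Brain and lung did not overlap, and lung gave 4 reads in all. The log2 fold was 6.94 ± 1.06 (SE, adjusted p 3.77e-05). A predicted gene, Gm42163, was also in reach of this peak. The start site of Ephb1, which guides axons at the optic chiasm (chr9:102354592-102354860), measured 68.4, 87.7, 75.2 and 40.8 RPM in brain, in the same order of libraries, and 0 to 22.7 RPM in lung with a median of 11.4. Its log2 fold was 2.46 ± 0.57 (SE, adjusted p 0.00359), and the call was lost without replicate 1 of brain at 200 nuclei (adjusted p 0.0689).

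The start site of Epha7, a receptor of cortical and retinal projections (chr4:28812891-28813236), was open in both tissues. It measured 73.9, 72.0, 95.3 and 83.8 RPM in brain and 0 to 50.5 RPM in lung with a median of 34.9. The log2 fold was 1.39 ± 0.46 (SE, adjusted p 0.0465), the smallest of the brain-higher calls, and the call was lost in 7 of the 10 fits without a library. Epha10, whose kinase domain is thought to be inactive, had a narrow start-site peak (chr4:124881650-124881742) at 46.5, 12.5, 30.1 and 12.9 RPM in brain and 0 to 4.99 RPM in lung with a median of 1.71. Its log2 fold was 3.41 ± 0.97 (SE, adjusted p 0.0189), and the gene Maneal was in reach as well. These 4 genes are on the neuron-type list, and in each the lowest brain library lay above the highest lung library.

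A pair of Eph receptor genes outside both lists were also called. Epha3, a receptor of retinal and motor axons, had a start-site peak (chr16:63864089-63864320) at 10.9, 34.4, 77.7 and 36.5 RPM in brain and 0 to 17.2 RPM in lung with a median of 4.23. The groups overlapped, since replicate 1 of brain at 50 nuclei lay below the highest lung library, and the log2 fold was 2.64 ± 0.78 (SE, adjusted p 0.0230). Ephb6, which lacks kinase activity, had a start-site peak that varied little in brain (chr6:41605320-41605550) at 41.0, 40.7, 37.6 and 47.3 RPM, against 0 to 14.7 RPM in lung with a median of 10.5. Its log2 fold was 2.18 ± 0.65 (SE, adjusted p 0.0250). In the opposite direction stood Epha2, a receptor of endothelium and epithelium. A peak in its body (chr4:141310418-141310574) measured 11.7 to 36.5 RPM in lung with a median of 18.5, against 5.47 RPM in replicate 1 of brain at 50 nuclei and 0 in the other 3 brain libraries. With 2 reads in brain and 152 in lung, the ratio of pooled levels was 15.0 (exact 95% counting interval 4.09 to 125), and the adjusted p was 0.0162.

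The Robo receptors of the rule, Robo1, Robo2 and Robo3, had 1 of 7 peaks higher in brain (14.3%) and 0 in lung. The netrin receptors Unc5 and Neo1 had 3 of 14 (21.4%) and 0, against 5.76% and 4.39% of all peaks. Robo4, which the rule left out, had a flanking peak (chr9:37400643-37400876) that was lower in brain. It measured 9.54 ± 5.46 RPM in brain (SD, n = 4) and 38.3 ± 15.0 RPM in lung (SD, n = 6). The log2 fold at Robo4 was -1.92 ± 0.63 (SE, adjusted p 0.0423). Robo1, a receptor for Slit repellents in commissural axons, was called at an inner start site (chr16:72663023-72663234), with 27.4, 53.2, 45.1 and 19.3 RPM in brain and 0 to 9.42 RPM in lung with a median of 1.36. The log2 fold was 4.31 ± 0.93 (SE, adjusted p 0.00177) without overlap. Neo1, which encodes neogenin, a relative of Dcc that binds netrins and repulsive guidance molecules, had a start-site peak (chr9:59036433-59036764) at 38.3, 65.8, 50.1 and 73.0 RPM in brain and 2.94 to 28.4 RPM in lung with a median of 12.8. Its log2 fold was 1.88 ± 0.53 (SE, adjusted p 0.0172), again without overlap.

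Unc5c, a receptor for repulsion by netrins, was called at 2 narrow peaks inside the gene and, with all 10 libraries in the fit, not at its start. The first (chr3:141585713-141585808) lay 120196 bp from its own start and measured 13.7, 15.7, 7.52 and 8.59 RPM in brain. Lung had a single read there, in replicate 1 at 50 nuclei (1.42 RPM). The ratio of pooled levels was 86.0 (exact 95% counting interval 13.5 to 3595), with an adjusted p of 0.00347. The second (chr3:141476718-141476825) measured 16.4, 3.13, 5.01 and 17.2 RPM in brain, from 17 reads, and 0 to 0.732 RPM in lung, from 3 reads. The ratio there was 28.7 (interval 8.29 to 153) and the adjusted p was 0.00877. Levels at both sites were low, and the intervals, which cover counting error only, were correspondingly wide. The missing call at the start does not show equal accessibility there. Without replicates 2 and 3 of lung at 50 nuclei, which left 1 library in that group, 2 start-site peaks had folds on the brain side. Their log2 folds were 4.96 ± 1.00 (chr3:141465431-141465608) and 2.62 ± 0.88 (chr3:141464960-141465058) (SE).

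Plexins, the receptors of semaphorins, had no brain-higher peak among 33 and 2 lung-higher ones (6.06%, against 4.39% of all peaks) with all 10 libraries in the fit. Without replicates 2 and 3 of lung at 50 nuclei, the Plxna2 start site (chr1:194619735-194620001) had a log2 fold of 4.03 ± 0.95 (SE). Plxna4 is on the neuron-type list as a receptor of sensory and cortical axons, yet a peak in its body (chr6:32510915-32511278) was lower in brain. It measured 21.9, 18.8, 20.1 and 0 RPM in brain and 41.2 to 100 RPM in lung with a median of 54.0. The log2 fold was -2.16 ± 0.52 (SE, adjusted p 0.00510), and the adjusted p was 0.0544 without replicate 2 of brain at 200 nuclei, the library at 0. Of the 6 Plxna4 peaks, 4 had a negative fold. Plxna2 had a body peak (chr1:194651933-194652430) at 24.6, 18.8, 15.0 and 32.2 RPM in brain and 5.48 to 94.2 RPM in lung with a median of 75.1. Here the groups overlapped through replicate 3 of lung at 50 nuclei, the log2 fold was -1.49 ± 0.49 (SE, adjusted p 0.0441), and 9 of 10 fits without a library lost the call.

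Among the ligands, semaphorins had 3 peaks higher in each tissue out of 47 (6.38%, against 5.76% and 4.39% of all peaks). Sema3g, a secreted semaphorin known from arterial endothelium, gave the lowest p of all guidance peaks. The peak (chr14:31232996-31233469) lay in the flank, 2880 bp from the gene end, with Phf7 also in reach. It measured 112 to 161 RPM in lung with a median of 135, against 10.9, 9.40, 25.1 and 21.5 RPM in brain. The lowest lung library was above the highest brain library by a wide gap, and the log2 fold was -3.12 ± 0.36 (SE, adjusted p 2.39e-07). All 4 Sema3g peaks had a negative fold, and only this one was called.

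Sema3f, a secreted semaphorin that repels axons through neuropilin 2, was called at 2 peaks in its body. The first (chr9:107702624-107702907) measured 28.4 to 177 RPM in lung with a median of 49.1, and 8.21, 15.7, 12.5 and 17.2 RPM in brain, a log2 fold of -2.31 ± 0.49 (SE, adjusted p 0.00165). The second (chr9:107696835-107697166) measured 25.6 to 52.4 RPM in lung with a median of 43.1, and 10.9, 15.7, 17.6 and 8.59 RPM in brain, a log2 fold of -1.66 ± 0.54 (SE, adjusted p 0.0423). Neither overlapped between the tissues, and 7 of 10 fits without a library lost the call at the second.

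The brain-higher semaphorin peaks lay at Sema4b, Sema3d and Sema5a. Sema4b, a transmembrane semaphorin, had a start-site peak (chr7:80186795-80187242) at 57.5, 87.7, 87.8 and 47.3 RPM in brain and 0 to 42.0 RPM in lung with a median of 16.6, a log2 fold of 1.95 ± 0.49 (SE, adjusted p 0.00781). Sema3d, a secreted semaphorin, had one (chr5:12383370-12383575) at 27.4, 18.8, 22.6 and 30.1 RPM in brain and 0 to 7.76 RPM in lung with a median of 1.42, a log2 fold of 3.27 ± 1.02 (SE, adjusted p 0.0340). Sema5a, which carries thrombospondin repeats, was called 193030 bp from its own start (chr15:32437798-32437888), at 10.9, 21.9, 17.6 and 10.7 RPM in brain and 0 to 4.99 RPM in lung with a median of 0, a log2 fold of 4.86 ± 1.35 (SE, adjusted p 0.0165). Brain and lung did not overlap at any of these 3 peaks.

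Netrins had 17 peaks, of which 0 were higher in brain and 2 in lung (11.8%), against 5.76% and 4.39% of all peaks. A negative fold was found in 14 of the 17, and in 17824 of all 37466 peaks tested. Ntn1, the classical attractant of commissural axons, was called in its body (chr11:68344395-68344485). It measured 6.59 to 91.3 RPM in lung with a median of 13.0, and 2.74, 3.13, 0 and 0 RPM in brain. From 152 reads in lung and 2 in brain, the ratio of pooled levels was 15.0 (exact 95% counting interval 4.09 to 125, the same totals as at Epha2), and the adjusted p was 0.0132. The Ntn1 call was lost in 5 of 10 fits without a library. All 7 Ntn1 peaks had a negative fold. Ntn4, a netrin of basement membranes, was called in its body (chr10:93679522-93679955) at 3.65 to 73.4 RPM in lung with a median of 37.8, and 16.4, 6.26, 5.01 and 6.44 RPM in brain. The groups overlapped, the log2 fold was -2.20 ± 0.70 (SE, adjusted p 0.0377), and 9 of 10 fits without a library lost the call. Ephrins (10 peaks) and Slits (4 peaks) had no call, and all 4 Slit peaks had a positive fold. Counted by role, the receptor families had 10 brain-higher (11.5%) and 3 lung-higher (3.45%) peaks of 87, and the ligand families 3 (3.85%) and 5 (6.41%) of 78, against 5.76% and 4.39% of all peaks. The ligand shares were near the background. That contrast between receptors and ligands was not tested.

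**Figure D2:**
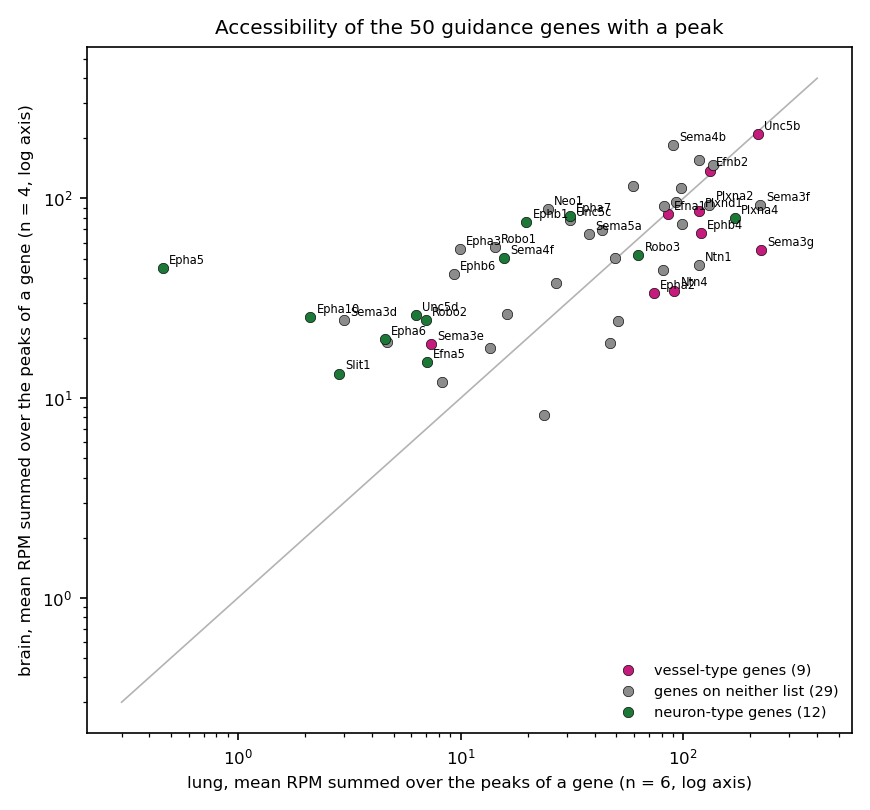
Mean accessibility summed over the peaks of each of the 50 guidance genes with a peak, brain (n = 4) against lung (n = 6), in RPM on log axes, with a line of equality; colours show the vessel-type list, the neuron-type list and genes on neither. Epha5 and Epha10 lie far above the line, Sema3g and Sema3f below it, and the vessel-type genes Unc5b and Efnb2 next to it.

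The vessel-type and neuron-type lists, which were written with earlier results of these data known, moved apart. Of 42 vessel-type peaks, 0 were higher in brain and 3 in lung (Sema3g, Epha2 and Ntn4), 29 had a negative fold, and the median log2 fold was -0.69. Of 22 neuron-type peaks, 4 were higher in brain (Epha5, Ephb1, Epha7 and Epha10) and 1 in lung (Plxna4), 17 had a positive fold, and the median was 1.53. Over all peaks, 5.76% were higher in brain and 4.39% in lung, with a median of 0.07. Of all peaks, 19642 had a positive and 17824 a negative fold. The vessel-type count was 1 without replicate 1 or 2 of brain at 200 nuclei, without replicate 2 of brain at 50 nuclei or without replicate 3 of lung at 200 nuclei, and 8 without both libraries that stood apart. The neuron-type count was 1 without replicate 1 of brain at 200 nuclei, 2 without replicate 1 of brain at 50 nuclei or replicate 2 or 3 of lung at 200 nuclei, 8 and 7 without replicate 1 or 2 of lung at 50 nuclei, and 7 without replicates 2 and 3 of that group together. DESeq2 called 9.

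Summed over its 42 peaks, the vessel-type list measured 966 to 1170 RPM in lung (1066 ± 96.9, SD, n = 6) and 644 to 791 RPM in brain (727 ± 65.8, SD, n = 4), without overlap. Summed over its 22 peaks, the neuron-type list measured 627, 529, 532 and 346 RPM in brain and 298 to 360 RPM in lung. Replicate 2 of brain at 200 nuclei lay inside the lung range, and it also had the lowest sum of neuron marker genes in brain, 312 RPM. The ratio of vessel-type to neuron-type accessibility was 2.68 to 3.63 in the lung libraries and 1.26 to 1.86 in the brain libraries. Vessel-type guidance genes were 1.47 times as accessible in lung as in brain by their means, endothelial marker genes 3.64 times and lung epithelium marker genes 3.15 times (341 to 562 RPM in lung and 125 to 172 RPM in brain). Neuron-type guidance genes were 1.54 times as accessible in brain, neuron marker genes 5.10 times and glial marker genes 1.64 times (298 to 440 RPM in brain and 129 to 318 RPM in lung). The part of the cell-type mix in these differences was not tested.

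The lists differed most at listed start sites. Plxna4, Slit1 and Unc5d of the neuron-type list had no listed start and could not count there. Neuron-type start sites, 6 peaks, measured 326, 291, 321 and 208 RPM in brain and 0 to 89.6 RPM in lung, means of 287 ± 54.3 (SD, n = 4) and 66.5 ± 34.8 RPM (SD, n = 6). No library overlapped, and leaving out replicates 2 and 3 of lung at 50 nuclei left a lung range of 56.3 to 89.6 RPM. All 6 had a positive fold, 4 were called, and the median log2 fold was 2.22. Of all start-site peaks, 6.16% were called higher in brain, and their median was 0.37. The sum over all start-site peaks did not overlap between the tissues either, at 543229 to 586405 RPM in brain and 500971 to 530450 RPM in lung. In gene bodies both lists had the higher sum in lung. Neuron-type gene-body peaks measured 260, 172, 183 and 107 RPM in brain and 220 to 298 RPM in lung, 1.39 times as much in lung by the means, and here the tissues overlapped. Their folds did not follow the sum: 9 of these 14 peaks had a positive fold and the median log2 fold was 0.29, while Plxna4, with the highest level on the list in lung, weighed most in the sum.

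Vessel-type start sites did not separate the tissues. The 12 peaks measured 331 to 481 RPM in brain and 349 to 555 RPM in lung, overlapping, with 0 calls and a median log2 fold of -0.15. Without the 2 libraries that stood apart, 1 of them was called lower in brain, the start site of Sema3g, at a log2 fold of -2.13 ± 0.69 (SE, adjusted p 0.0173). The 23 vessel-type gene-body peaks measured 207 to 328 RPM in brain and 343 to 482 RPM in lung, and the 7 flanking peaks 70.2 to 98.5 RPM in brain and 197 to 281 RPM in lung, both without overlap. By the means these were 1.62 and 2.77 times as much in lung, against 1.23 times for all gene-body peaks and 1.14 times for all flanking peaks. The sums over all gene-body peaks and over all flanking peaks did not overlap between the tissues either. The called flanking peak of Sema3g alone gave most of the flanking sum in lung, with a mean of 136 of 238 RPM.

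**Figure D3:**
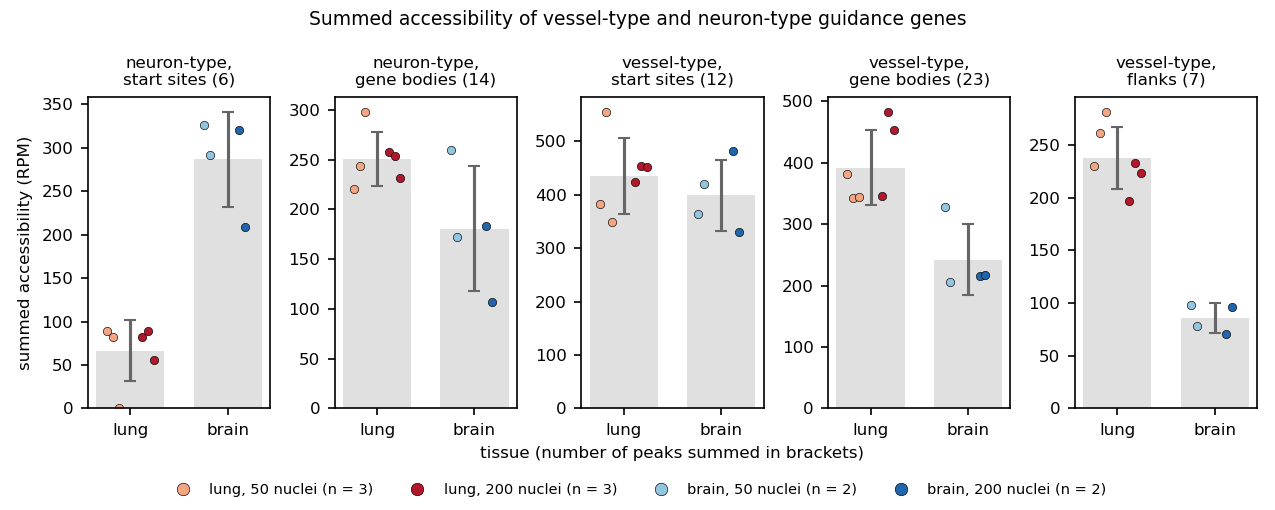
Accessibility summed over neuron-type and vessel-type guidance peaks by place, in RPM; bars are means, error bars SD (lung n = 6, brain n = 4), and points are libraries, with the number of peaks summed in each title. Neuron-type start sites are higher in brain in every library, vessel-type start sites overlap, and vessel-type gene bodies and flanks are higher in lung.

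Over all guidance genes, places were compared in the same way. Of the 51 start-site peaks, 10 were higher in brain (19.6%) and 0 in lung, against 6.16% and 1.46% of all start-site peaks. The lung-higher peaks of Ntn1, Plxna4 and Sema3f could not count here, since these genes had no listed start. As gene-body peaks they lay over 1000 bp from both ends of their gene, so only an inner start could have been missed at them. A positive fold was found in 39 of the 51, and in 8347 of 12072 start-site peaks of any gene. The median log2 fold was 0.79, against 0.37 for all start-site peaks. Of the 97 gene-body peaks, 3 were higher in brain (3.09%) and 7 in lung (7.22%), against 5.68% and 5.84% of all gene-body peaks, and the median was -0.28, against -0.35. The remaining lung-higher call was the flanking peak of Sema3g. Without the 2 libraries that stood apart, 18 start-site peaks were higher in brain (35.3%) and 3 in lung (5.88%), against 11.8% and 5.18% of all start-site peaks. In gene bodies the counts were then 6 (6.19%) and 16 (16.5%), against 8.87% and 16.4%. The gene-body shares were thus near the background in that fit. The difference between guidance start sites and all start sites was not tested.

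Start sites as a class took more of the reads in brain. All start-site peaks together held 50.1% to 53.0% of nuclear reads in the lung libraries and 54.3% to 58.6% in the brain libraries. Summed guidance start sites measured 1725 ± 140 RPM in brain (SD, n = 4) and 1140 ± 98.5 RPM in lung (SD, n = 6), 1.51 times as much by the means, against 1.12 times for all start-site peaks. Summed guidance gene bodies measured 1177 ± 146 RPM in brain and 1595 ± 155 RPM in lung, and the libraries did not overlap. All gene-body peaks together did not overlap either, at 141814 to 169503 RPM in brain and 174885 to 191271 RPM in lung. The part of the general shift in the guidance values was not tested. At the 13 brain-higher peaks, replicate 3 of lung at 50 nuclei had 0 reads in 11, replicate 2 in 9 and replicate 1 in 3, and all 13 kept their call without replicates 2 and 3.

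**Figure D4:**
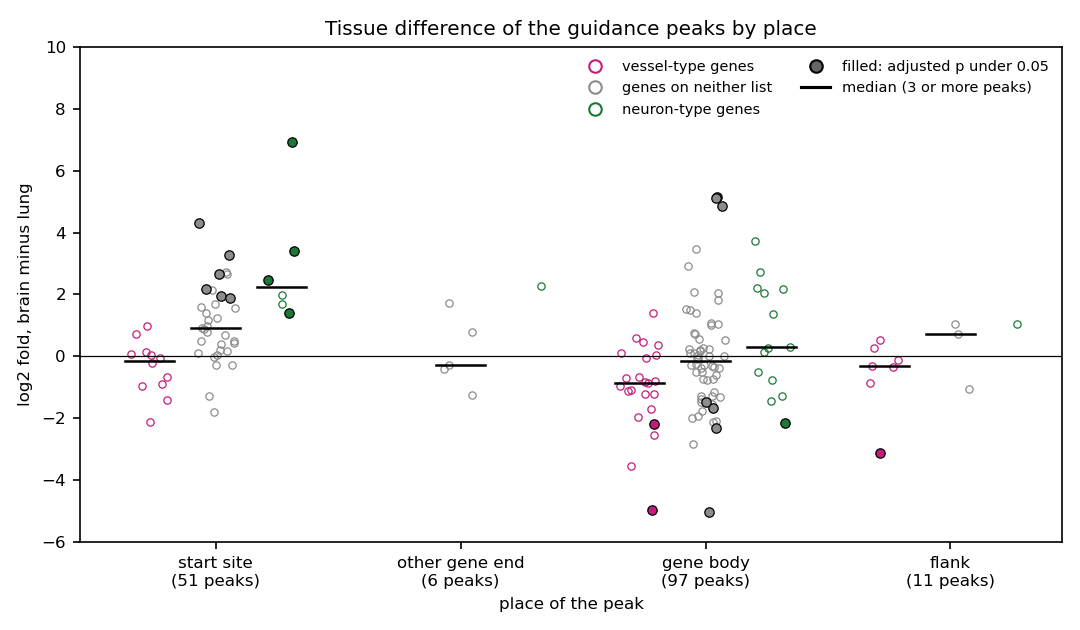
Log2 fold of brain minus lung for each of the 165 guidance peaks by its place, coloured by list; filled points had an adjusted p under 0.05 and bars are medians. The filled start-site points all lie above 0, and 7 of the 10 filled gene-body points lie below it. Only listed starts count as start sites.

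Within single genes, peaks often pointed in different directions. Of 35 genes with 2 or more peaks, 20 had folds of both signs, 12 had only positive and 3 only negative ones (Ephb4, Ntn1 and Sema3g). No gene had calls in both directions with all 10 libraries in the fit. Without replicates 2 and 3 of lung at 50 nuclei, 1 library was left in that group. In that fit the Plxna2 start site had a log2 fold of 4.03 ± 0.95 and its body peak one of -1.70 ± 0.33 (SE). Unc5b, the netrin receptor of vessel tip cells, is an example of a vessel-type gene that was open in both tissues. Its start site (chr10:60831365-60831768) measured 93.0, 94.0, 125 and 96.7 RPM in brain and 27.4 to 128 RPM in lung with a median of 108, a log2 fold of 0.06 ± 0.31 (SE, adjusted p 0.930).

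The other vessel-type genes without a call were described by their most accessible peak, which was a start site in each. Efnb2, the ephrin of arterial endothelium (chr8:8661009-8661617), measured 64.4 to 150 RPM in brain and 68.7 to 166 RPM in lung, a log2 fold of 0.14 ± 0.28 (SE). Ephb4, its receptor on venous endothelium (chr5:137349931-137350209), measured 28.2 to 45.1 RPM in brain and 38.4 to 85.1 RPM in lung, a log2 fold of -0.68 ± 0.38 (SE). Plxnd1, the endothelial plexin (chr6:115994924-115995149), measured 35.1 to 43.8 RPM in brain and 24.2 to 70.4 RPM in lung, a log2 fold of -0.06 ± 0.42 (SE). Sema3e, the ligand of Plxnd1 (chr5:14025330-14025428), was low in both, at 3.13 to 17.2 RPM in brain and 0 to 11.1 RPM in lung. Efna1, an ephrin of vessels and epithelium (chr3:89279610-89279822), measured 24.6 to 53.2 RPM in brain and 11.0 to 35.5 RPM in lung. The tissues overlapped at each of these peaks.

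Neuron-type genes without a call had folds on the brain side at their most accessible peak, except Robo3. Sema4f, a semaphorin of neurons, came nearest to the threshold: its start site (chr6:82939627-82939892) measured 62.9, 59.5, 52.7 and 25.8 RPM in brain and 0 to 23.1 RPM in lung without overlap, a log2 fold of 1.67 ± 0.57 (SE, adjusted p 0.0528). The start site of Robo2, a Slit receptor (chr16:74411638-74411781), also did not overlap, at 13.7 to 19.3 RPM in brain and 0 to 9.52 RPM in lung, a log2 fold of 1.98 ± 0.96 (SE, adjusted p 0.186). Unc5d, a netrin receptor of cortical neurons (chr8:29219569-29219782, at a gene end, with no start listed), had a log2 fold of 2.26 ± 0.84 (SE, adjusted p 0.0789), with overlap. Slit1, a Slit of the nervous system (chr19:41647113-41647203), had one of 2.71 ± 1.12 (SE, adjusted p 0.118), also with overlap. Epha6 (chr16:59846049-59846161, gene body) measured 2.15 to 16.4 RPM in brain and 0 to 4.99 RPM in lung, and Efna5, an ephrin of topographic maps (chr17:62883013-62883206, flank), 4.30 to 25.1 RPM in brain and 0 to 13.3 RPM in lung. Robo3, which controls midline crossing, had a body peak (chr9:37420698-37421039) at 19.3 to 40.7 RPM in brain and 34.1 to 93.9 RPM in lung, a log2 fold of -0.79 ± 0.41 (SE, adjusted p 0.228).

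The tissue difference was also tested at each mini-bulk size. At 50 nuclei, Epha5 and Robo1 were higher in brain and Sema3g and 1 Sema3f peak higher in lung, 2 guidance peaks each, against 0.918% and 0.488% of all peaks. At 200 nuclei, Epha5 and 1 Unc5c peak were higher in brain and Sema3g in lung, against 1% and 1.24% of all peaks. Each of the 13 brain-higher and 8 lung-higher peaks had a fold of the same sign at both sizes. No guidance peak had a tissue difference that depended on size, and none of all peaks did (0%), by edgeR's quasi-likelihood F test of the interaction. Without adjustment, 6 guidance peaks and 1554 of all peaks had p under 0.05, and DESeq2 called 0. Neither did a guidance peak differ between 200 and 50 nuclei averaged over tissues (0% of all peaks), where 4 guidance peaks and 1375 of all peaks had p under 0.05 and DESeq2 called 0 guidance peaks. With 2 or 3 libraries per group, these zeros do not show that size had no effect.

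Other genes of the guidance pathways, namely co-receptors, adhesion molecules and the cytoplasmic machinery that turns receptor signals into movement of the cytoskeleton, were taken from a list of 40 genes. Of these, 36 had a peak and Cdk5, Flrt2, L1cam and Ngef had none. Of their 157 peaks, 18 in 12 genes were higher in brain (11.5%, against 5.76% of all peaks) and 10 in 6 genes higher in lung (6.37%, against 4.39%), and the median log2 fold was 0.03. The brain-higher peaks of lowest adjusted p lay inside Dock1, an activator of Rac (41.8 ± 8.60 RPM in brain, SD, n = 4, and 1.26 ± 1.65 RPM in lung, SD, n = 6), inside Kalrn, a guanine nucleotide exchange factor, and at a gene end of Dpysl2, a collapsin response mediator that acts downstream of Sema3 signals (26.7 ± 4.78 and 0.413 ± 0.572 RPM). The Kalrn peak had 36 reads in brain and 0 in lung. With 3 reads for all lung libraries together taken as the floor, the ratio of pooled levels was 60.7. That value leaves out counting error and is not a lower bound. In lung, the lowest adjusted p went to another Kalrn peak (12.7 ± 4.79 RPM in brain and 71.0 ± 24.8 RPM in lung) and to a body peak and the start site of Limk1, the kinase that inactivates cofilin. The Limk1 body peak measured 29.0 ± 3.26 RPM in brain and 88.5 ± 28.8 RPM in lung. The Limk1 start site measured 202 ± 30.4 RPM in brain and 364 ± 43.6 RPM in lung, a log2 fold of -0.85 ± 0.20 (SE, adjusted p 0.00534). Kalrn thus had peaks called in both directions, and so did Dpysl2. A body peak of Dpysl2 (chr14:66852352-66852760) measured 14.3 ± 3.21 RPM in brain and 65.9 ± 35.3 RPM in lung, a log2 fold of -2.13 ± 0.53 (SE, adjusted p 0.00707). With all 10 libraries in the fit, no gene among the 50 guidance genes with a peak had calls in both directions. The folds of both signs at Plxna2 without replicates 2 and 3 of lung at 50 nuclei are given above.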

How the data were processed

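Raw counts for 37513 peaks in 10 libraries were deposited by the authors as 1 table, per the file headers. Per the submitters' processing notes, the build was mm10 and the tools included Bowtie2 2.4.5, Picard and MACS2 2.2.7.1. Peak merging, the counting unit, duplicate removal and any Tn5 shift were not given in the sources used here. Repeated reads of 1 fragment, if kept, would raise the spread between libraries.

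Peaks were placed on RefSeq gene models and starts (GRCm38.p6), with positions as the file gives them. Starts were listed for 61 of the 71 genes. Counts were tested with edgeR 4.0.16 in R 4.3.3 (TMM, at least 10 reads over the 10 libraries, 1 mean per tissue-by-size group, quasi-likelihood F test, Benjamini-Hochberg over 37466 peaks), after a test on simulated data. The 2 mitochondrial peaks stayed in the fit and out of RPM. SE is the log2 fold divided by the root of F. Alternatives were DESeq2 1.42.0, other scalings, filters and windows, left-out libraries and a replicate block, and, added after seeing the data, a fit without mitochondrial peaks. The rule named every called peak, the most accessible peak of each listed gene without a call, genes without a peak, and the 3 other pathway peaks of lowest p per direction. Members and lists were chosen with earlier results of these data known.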

Additional observations from a re-analysis of the deposited data

Results flagged for a closer look

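In 10 of 48 sets of values examined (1 tissue at 1 named peak or list), a single library lay far from the others of its tissue, where chance flags about 1 set in 20 (5%). In 4 of them the far value was a high one in lung at a peak nearly closed there: Epha5 with 2.20 RPM in replicate 2 of lung at 200 nuclei, Robo1 with 9.42 RPM and Sema5a with 4.99 RPM in replicate 1 of that group, and the Unc5c peak at chr3:141585713-141585808 with 1.42 RPM in replicate 1 of lung at 50 nuclei. The Ntn1 peak reached 91.3 RPM in replicate 3 of lung at 50 nuclei. In the same library, which reached few peaks, the Ephb6 start site was at 0 RPM and the Plxna2 body peak at 5.48 RPM. In brain, replicate 1 at 50 nuclei was high at Epha2 (5.47 RPM) and at Ntn4 (16.4 RPM), and replicate 2 at 200 nuclei was at 0 RPM at Plxna4.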

How the results depend on the processing

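The 13 brain-higher and 8 lung-higher guidance peaks, and the 3 vessel-type lung-higher and 4 neuron-type brain-higher peaks among them, numbered as follows elsewhere. Library totals gave 1, 127, 41 and 1, and reversed the log2 fold at Ephb1 (-0.89), Sema4b (-1.47), Neo1 (-1.50), Epha3 (-0.68), Ephb6 (-1.28), Sema3d (-0.0215) and Epha7 (-2.03). The default filter of edgeR, which tested 149 guidance peaks, gave 8 and 5, beside 828 and 1205 of all peaks. DESeq2 gave 19 and 8, beside 3386 and 2127 of all peaks, and 9 neuron-type peaks. Without replicates 2 and 3 of lung at 50 nuclei the counts were 25, 21, 8 and 7, and 1 peak differed by size. With the replicate number as a block they were 6, 5, 2 and 2, and over all peaks 970 were higher in brain and 1072 in lung. The numbers did not pair libraries: the 13 same-number pairs had correlations of deviations from -0.03 to 0.02, and 2 of 10 libraries correlated best with their own number. Leaving out 1 library gave ranges of 4 to 25, 2 to 11, 1 to 4 and 1 to 8. Nuclear totals gave 14 and 9, no filter 13 and 8, the 1000 bp window 13 and 7, and the fit without mitochondrial peaks 13 and 6. The causes were not tested. With 1012 to 9650 reads in guidance peaks per library, single peaks rest on few reads, and a missing call does not show equal accessibility.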
